A study of Saccharum hybrid cultivar with 68 samples.

Results

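In the stem of 2 sugarcane genotypes, 35 of 100182 unigenes were abundant at the early stage of sucrose accumulation and fell to a small share of that level afterwards. A unigene is a transcript assembled from the reads without a reference genome. The members were selected on measured values. CPM is the count of a unigene scaled to the total of its library, and group means were taken over 3 libraries. In each genotype the early stem mean had to reach 5 CPM and to be at least 8 times both the middle and the late stem mean. An early stem mean of 5 CPM or more in both genotypes was found for 14206 unigenes, of which the members were 0.246%. The stage requirement was met by 46 unigenes in ROC22 and by 61 in GT86_887, so the members were 76.1% of the first list and 57.4% of the second. The stage differences in stem are therefore given as a description, with no test.

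The genotypes were ROC22 and GT86_887, which the labels write with a hyphen, both Saccharum hybrids. Leaf and stem of each were sampled for mRNA at an early, a middle and a late stage of sucrose accumulation, with 3 libraries in each of the 12 groups. No treatment, transgene or plant age is given in the labels, and the series description says that the genotypes differ in sucrose content without saying here which holds more. The labels do not say that replicate libraries are from separate plants, so p-values refer to the spread among these libraries alone, which may be technical. Each stage is a separate sampling and no batch is labelled, so stage and any effect of sampling or handling cannot be told apart. In bulk tissue, fewer cells of a type and less RNA per cell cannot be told apart either.

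A sugarcane stem is a column of internodes. As background, young internodes divide, elongate and build cell walls, and as they mature they lignify and their storage parenchyma fills its vacuoles with sucrose that is made in the leaves and carried through the phloem. Many transcripts of growing tissue are therefore known to decline as internodes mature. The deposited tables pair the unigenes with no gene name, function or sequence, so the functions of the members are not analysed here, and members are known by assembly identifiers such as c127155.graph_c0.

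Summed counts per library ran from 19241718 to 24929466 in stem and from 17970015 to 24414986 in leaf, so that 3 counts corresponded to 0.120 to 0.167 CPM. One library per tissue stood apart. The library labelled GT86_887 middle 1 detected 10 of 19 stem unigenes that all other libraries placed in ROC22 alone and 3 of 12 that they placed in GT86_887 alone. Its leaf counterpart detected 8 of 14 and 6 of 24. Every other library detected 0 of the unigenes of the other genotype. The mean correlation of this library with the rest of its own group was 0.930 in stem and 0.928 in leaf, below the 0.944 and 0.942 it had with the ROC22 middle libraries. It thus goes partly against its genotype label, and the number of members and some counts of calls are given with and without it. The means, folds and medians of the GT86_887 middle groups include it. Without it the membership rule found 29 unigenes, all of them among the 35.

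The most abundant member was c127155.graph_c0, which held 2091, 2211 and 2483 CPM in the 3 early stem libraries of ROC22 and 4840, 4512 and 4627 CPM in those of GT86_887. In middle stem it held 119, 59.1 and 81.7 CPM in ROC22 and 17.0, 170.0 and 113 CPM in GT86_887, where the lowest value belongs to the library labelled GT86_887 middle 1. In late stem it held 119, 340.2 and 118 CPM in ROC22 and 352, 177 and 441 CPM in GT86_887. The early libraries lay well apart from all others, which the membership rule largely sets, and the residual level was far above the counting floor. Per length, the authors' FPKM of this unigene in early stem was 3805 ± 345 in ROC22 and 7884 ± 263 in GT86_887 (SD, n = 3), the highest of the members on that scale too.

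The second most abundant member, c131449.graph_c0, held 922, 1115 and 970.3 CPM in early stem of ROC22 and 1341, 1527 and 1416 CPM in early stem of GT86_887. Its level in middle and late stem lay between 47.0 and 152 CPM in every library of either genotype. Its early stem FPKM was 769 ± 70.6 in ROC22 and 1037 ± 81.0 in GT86_887 (SD, n = 3). These 2 unigenes together made up 58.2% of the summed CPM of the members in early stem of ROC22 and 61.1% in early stem of GT86_887.

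**Figure D1:**
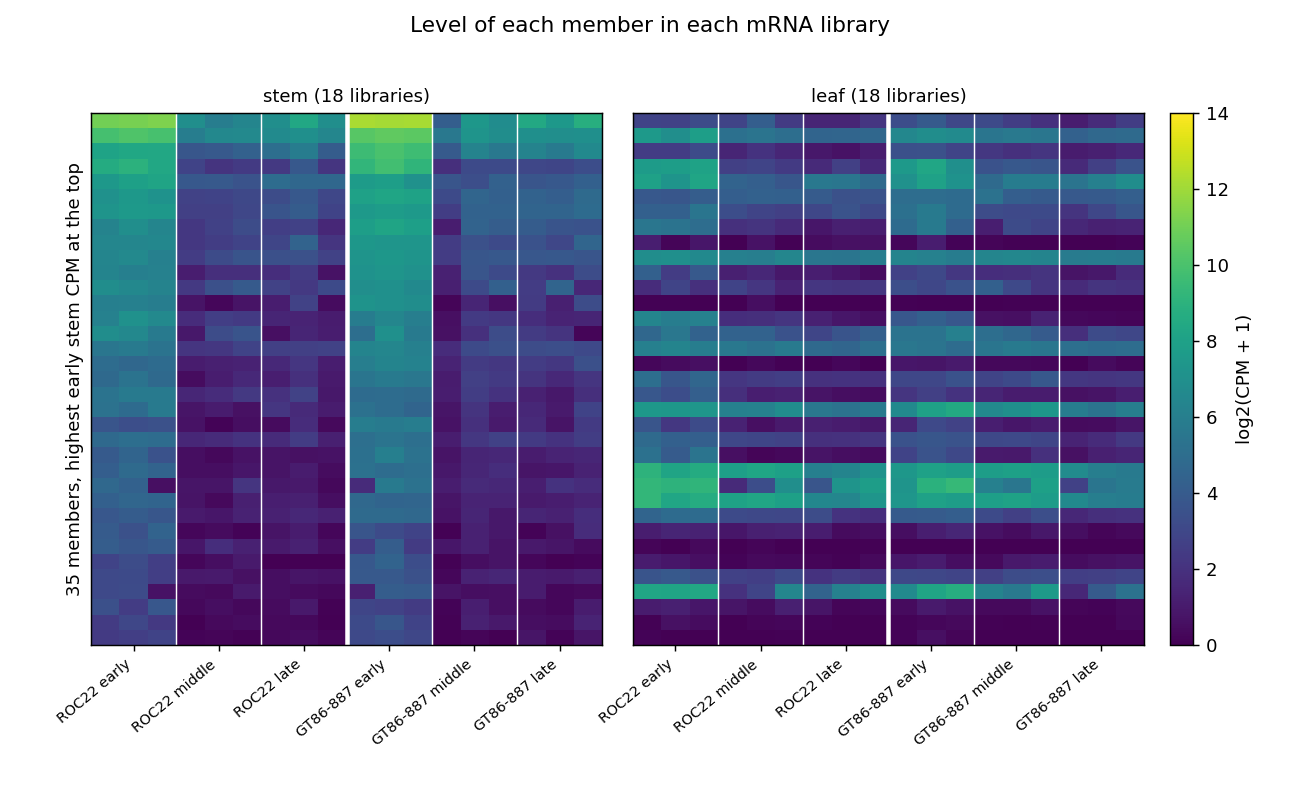
Level of the 35 members (rows, highest early stem CPM at the top) in the 18 stem and 18 leaf mRNA libraries (columns, 3 per group), as log2(CPM + 1). The early stem columns are bright in every row by selection, whereas in leaf some rows are dark throughout and others are bright in the early columns or in all stages.

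Summed over the members, early stem held 5609 ± 362 CPM in ROC22 and 9981 ± 525 CPM in GT86_887 (SD, n = 3). Middle stem held 278 ± 33.0 and 392 ± 230 CPM, and late stem 450 ± 205 and 694 ± 183 CPM, in the same order of genotypes. In middle stem of GT86_887 the sum was 135 CPM in the library labelled middle 1 and 578 and 463 CPM in the others, and 32 of the 35 members were lowest there among these 3 libraries. In late stem of ROC22 the second library held 683 CPM against 367 and 298 CPM, and 26 members were highest in it. Leaving out the 2 most abundant members, the sum was 21.6-fold higher in early than in middle stem of ROC22 and 20.8-fold in GT86_887.

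The members differed widely in level. The mean of the 2 early stem means lay at 5 to 10 CPM for 5 members, at 10 to 50 CPM for 14, at 50 to 100 CPM for 4, at 100 to 1000 CPM for 10 and above 1000 CPM for 2. Its median was 38.8 CPM. The median fold of early over middle stem was 20.8 in ROC22 and 17.2 in GT86_887, and that of early over late stem 16.1 and 13.6. All 4 folds reached 16 in 7 members and 32 in 1 member, which is c134461.graph_c0.

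Describing these unigenes as shut down fits some members and not others. All 4 middle and late stem group means were below 1 CPM in 5 members and below 5 CPM in 20, while 9 members kept at least 1 such mean at 10 CPM or more. The late mean was above the middle mean in both genotypes for 19 members and below it in both for 7. The GT86_887 middle mean includes the library labelled middle 1, in which 32 members were lowest of the 3 middle stem libraries. That library lowers the middle means of these members and so favours late above middle. Counts of late against middle stem were not made without it, so how many of the 19 rest on this library is not given. For example, c134461.graph_c0 had GT86_887 means of 6.16 CPM in middle and 7.50 CPM in late stem. Its libraries middle 2 and 3 held 7.93 and 7.92 CPM, so its order turns without middle 1. The 19 are therefore not read as a rise from middle to late stem. Every late library lay above every middle library for 3 members in ROC22 and 2 in GT86_887, and below for 2 and 0. The share of all unigenes with such separation was not counted, so these counts are a description.

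The member with the steepest fall, c134461.graph_c0, held 393, 507 and 337 CPM in early stem of ROC22 and 598, 877 and 580.3 CPM in early stem of GT86_887. In middle and late stem it lay between 2.64 and 13.2 CPM in all 12 libraries. Next in steepness was c120627.graph_c0, with 64.5 ± 4.28 CPM in early stem of ROC22 and 132 ± 15.5 CPM in that of GT86_887. Its middle stem means were 0.514 ± 0.291 and 0.799 ± 0.866 CPM and its late stem means 2.40 ± 2.87 and 4.77 ± 3.60 CPM (SD, n = 3).

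At the edge of the rule, c127892.graph_c3 was the member with the smallest fold, 8.12, at 6.78 CPM in early and 0.835 CPM in middle stem of ROC22. Just outside lay c129545.graph_c1, with a smallest fold of 7.71 from 6.58 CPM in early to 0.855 CPM in late stem of GT86_887.

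In 33 members every early stem library lay above every middle and late stem library of its genotype. The rule asks these same libraries for means at least 8 times apart, so this separation is largely set by the selection. The 2 exceptions, singled out after their values were seen, were c116455.graph_c0 and c114528.graph_c0. In early stem c116455.graph_c0 held 25.5, 19.5 and 0.468 CPM in ROC22 and 2.36, 51.4 and 38.0 CPM in GT86_887. In the same libraries c114528.graph_c0 held 7.50, 8.19 and 0.624 CPM and then 1.33, 16.4 and 15.1 CPM. Both were thus low in the third ROC22 and the first GT86_887 library. The coefficient of variation among the early stem libraries had a median of 18.5% in ROC22 and 12.4% in GT86_887 over the members.

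The 35 members came from 32 assembly components, the groups of related contigs that the first part of an identifier names, and 5 members shared a component with another member. For 13 members the component held a further unigene of the table. No source used here says how reads were divided between such related sequences, so the levels of these members are uncertain. The length implied by the ratio of counts to FPKM had a median of 0.852 kb over the 34 members with at least 200 counts, with a range of 0.157 to 2.84 kb. Over 14043 unigenes with an early stem mean of 5 CPM or more the median was 1.46 kb.

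A degradome library sequences the uncapped fragments that remain when an RNA is cut, for example by a microRNA. The degradome table paired microRNAs with 752 target unigenes, and 0 of the 35 members were among them. Of the 14206 unigenes at 5 CPM or more in early stem, 3.69% were targets. At that share few members would be listed in any case, and the absence of a pair in this table does not show the absence of cleavage.

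The leaf libraries were not used to choose the members. Early leaf levels ranged from below the counting floor to 576 CPM, and the members fell into sets by their level there. In 7 members every leaf group mean was below 1 CPM, and the highest value in any leaf library was 1.28 CPM, although their early stem means reached 85.9 CPM in ROC22 and 161 CPM in GT86_887. At the other end, 23 members had an early leaf mean of 5 CPM or more in both genotypes. The early leaf mean was below the early stem mean in both genotypes for 24 members, below 0.1 times it in both for 9, and above it in both for 5.

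The stem-restricted pattern was plainest in c120627.graph_c0, which held 0.0457, 0.0443 and 0 CPM in early leaf of ROC22 and 0.0556, 0 and 0 CPM in that of GT86_887. The highest of its 18 leaf values was 0.455 CPM, in the second middle library of ROC22. That value rests on 9 counts, and no other leaf library had more than 1 count of this unigene. The most abundant member in stem, c127155.graph_c0, held 6.75 ± 1.53 CPM in early leaf of ROC22 and 10.1 ± 3.91 CPM in that of GT86_887 (SD, n = 3).

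The 5 members that were higher in early leaf were 4.34 to 57.8 times their early stem mean there, at 169 to 576 CPM in ROC22 and 212 to 434 CPM in GT86_887. Their early stem means were modest, between 5.44 and 39.0 CPM. One of them, c120244.graph_c1, held 619, 309 and 399 CPM in early leaf of ROC22 and 161, 256 and 219 CPM in early leaf of GT86_887. It stayed high in middle leaf, at 276 ± 34.4 and 238 ± 27.6 CPM, and was at 110 ± 41.4 and 73.4 ± 23.4 CPM in late leaf (SD, n = 3). In early stem the same unigene held 21.3 ± 2.60 and 23.1 ± 1.83 CPM. Another member carries the same component name, so reads of these unigenes may not be separable. The exceptions c116455.graph_c0 and c114528.graph_c0 also belong to these 5, and in early leaf of ROC22 they held 576 ± 39.2 and 314 ± 17.0 CPM. In middle leaf of ROC22 c116455.graph_c0 ranged from 2.19 to 122 CPM.

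**Figure D2:**
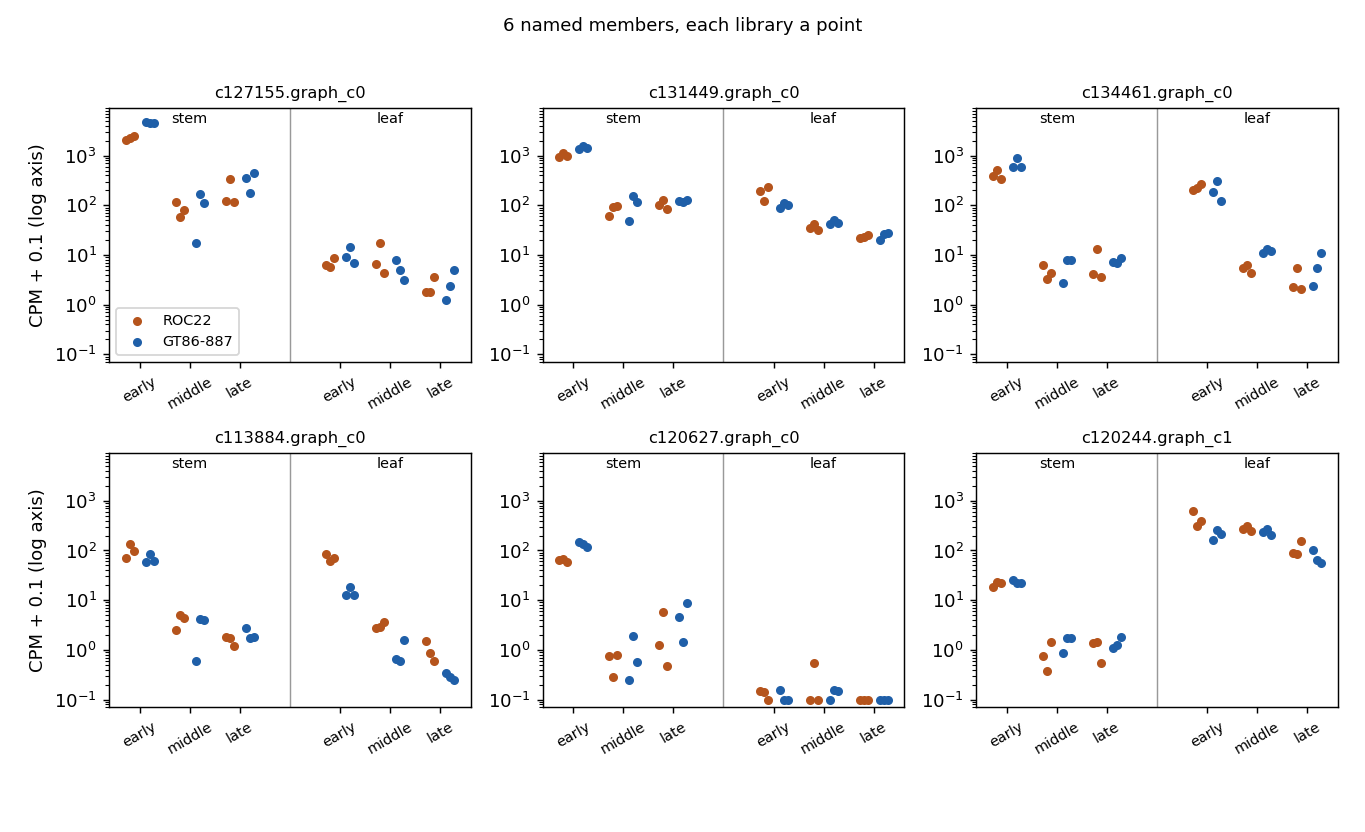
CPM + 0.1 (log axis) of 6 named members in each stem and leaf library, with ROC22 in orange and GT86_887 in blue. All are highest at the early stage in stem, c120627.graph_c0 is near 0 in every leaf library, c134461.graph_c0 and c113884.graph_c0 fall in leaf as they do in stem, and c120244.graph_c1 lies higher in leaf than in stem.

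Leaf counts asked whether the fall between stages held in a tissue that played no part in the selection. Every passing test among the members was in the direction of a fall. Stage contrasts were tested in 1 edgeR quasi-likelihood fit of the 18 leaf libraries, with Benjamini-Hochberg adjustment over all unigenes tested and an adjusted p below 0.05 called a pass. The low-count filter kept 31 members. The 4 others had at most 0.531 CPM, or 12 counts, in any leaf library and were not tested. Of the 31, 30 would have passed the filter on their middle and late libraries alone.

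In ROC22, 21 of 31 members fell from early to middle leaf and 0 rose. Over all 37678 unigenes tested, 9.65% fell and 8.25% rose in that contrast. The median log2 fold change was -1.84 over the members tested and 0 over all unigenes. From early to late leaf of ROC22, 23 members fell and 0 rose, against 14.8% lower and 13.5% higher over all unigenes. The median change of the members was -2.25 on the log2 scale. Every early library of ROC22 lay above every middle library in 21 of the 31 members and above every late library in 26. For GT86_887 these counts were 15 and 28. The share of all unigenes with such separation was not counted, so nothing is read from these counts.

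In GT86_887, 10 of 31 members fell from early to middle leaf and 0 rose, where 8.42% of all unigenes fell and 9.82% rose. The median change was -0.91 on the log2 scale. Without the leaf library labelled GT86_887 middle 1, 11 members fell. From early to late leaf of GT86_887, 24 members fell and 0 rose, against 13.0% lower and 12.4% higher over all unigenes, with a median change of -2.04. Without the second late library of GT86_887 leaf this count was 15, and all 15 were lower. Whether the middle-stage change differed between the genotypes in leaf was not tested.

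Both genotypes shared 19 of the 31 members tested that fell from early to late leaf, where 7.95% of all unigenes tested fell in both. In all 4 leaf contrasts 10 members fell, against 1.87% of all unigenes, and in at least 1 of them 28 members, against 25.0%. Contrasts within a genotype share their early libraries, so these counts are not independent of each other. In 3 of the 31 tested members none of the 4 contrasts passed.

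**Figure D3:**
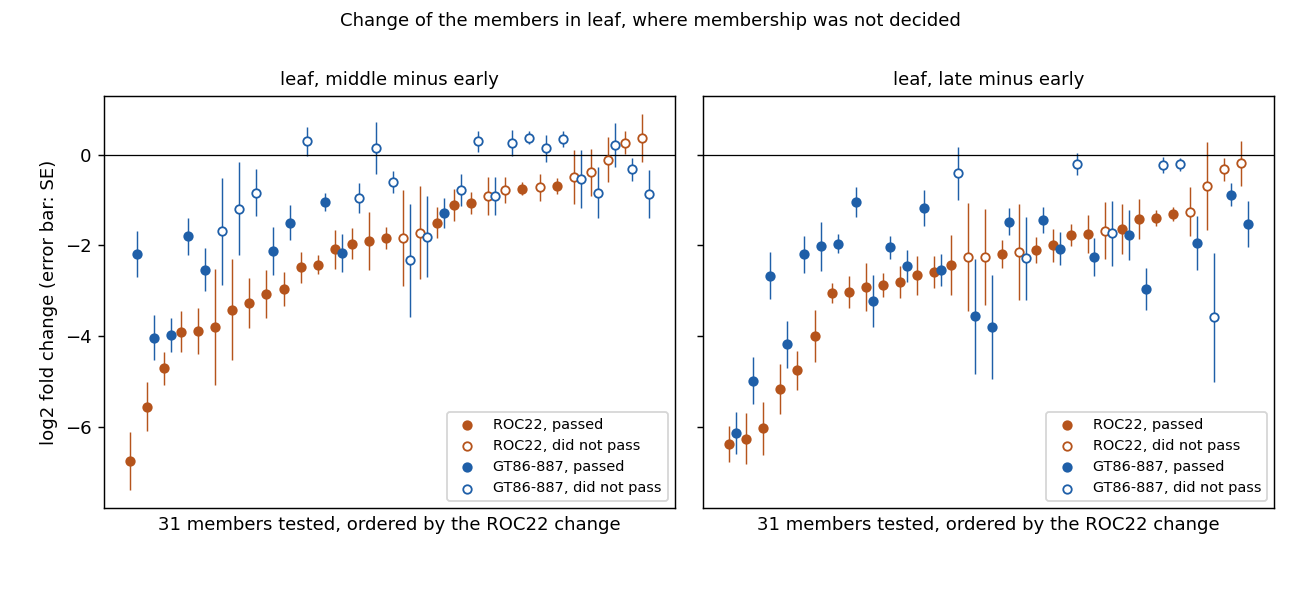
log2 fold change with its SE for the 31 members tested in leaf, middle minus early and late minus early, in ROC22 (orange) and GT86_887 (blue), with passing tests filled. In the late contrast all points of both genotypes lie below 0, and in the middle contrast 29 of 31 ROC22 values and 23 of 31 GT86_887 values do.

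The members with the largest leaf falls among those that met the naming rule were c134461.graph_c0 and c113884.graph_c0, in all 4 contrasts. In early leaf c134461.graph_c0 held 201, 224 and 267 CPM in ROC22 and 188, 314 and 123 CPM in GT86_887. In middle leaf it held 5.36, 6.21 and 4.22 CPM in ROC22 and 10.7, 13.3 and 11.8 CPM in GT86_887. In late leaf its values were 2.18, 5.24 and 2.01 CPM and 2.22, 5.35 and 11.0 CPM. The early libraries did not overlap with any later library. Its log2 change from early to late leaf was -6.25 ± 0.55 in ROC22 (SE, edgeR adjusted p = 1.15e-06) and -4.98 ± 0.52 in GT86_887 (adjusted p = 8.52e-06).

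In early leaf c113884.graph_c0 held 83.2, 60.7 and 71.2 CPM in ROC22 and 12.7, 18.3 and 12.7 CPM in GT86_887. In late leaf it held 1.41, 0.778 and 0.503 CPM in ROC22 and 0.241, 0.189 and 0.143 CPM in GT86_887, the last at the level of 3 counts. Its log2 change from early to late leaf was -6.38 ± 0.39 in ROC22 (SE, edgeR adjusted p = 3.97e-08) and -6.12 ± 0.46 in GT86_887 (adjusted p = 4.93e-07). In early stem it held 99.7 ± 31.5 CPM in ROC22 and 68.4 ± 13.8 CPM in GT86_887, so early levels in ROC22 were of one order in both tissues.

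These 2 unigenes were also the members that met the membership rule when it was applied to leaf. That leaf list held 17 unigenes, 0.114% of the 14852 with an early leaf mean of 5 CPM or more in both genotypes. The shared unigenes were 5.71% of the stem members, 11.8% of the leaf list and 8.70% of the 23 members with such an early leaf mean. Leaf falls were thus common among the members but seldom as deep in both genotypes as the stem rule asks.

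Summed over the 35 members, early leaf held 3089 ± 434 CPM in ROC22 and 2235 ± 676 CPM in GT86_887 (SD, n = 3). Middle leaf held 969.6 ± 116 and 1177 ± 176 CPM, and late leaf 649 ± 231 and 502 ± 65.5 CPM. The leaf sum was thus 4.76-fold higher in early than in late leaf of ROC22 and 4.45-fold in GT86_887, whereas in stem it was 12.5-fold and 14.4-fold higher. The stem folds are set by the selection, so the tissues are given side by side without a test.

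**Figure D4:**
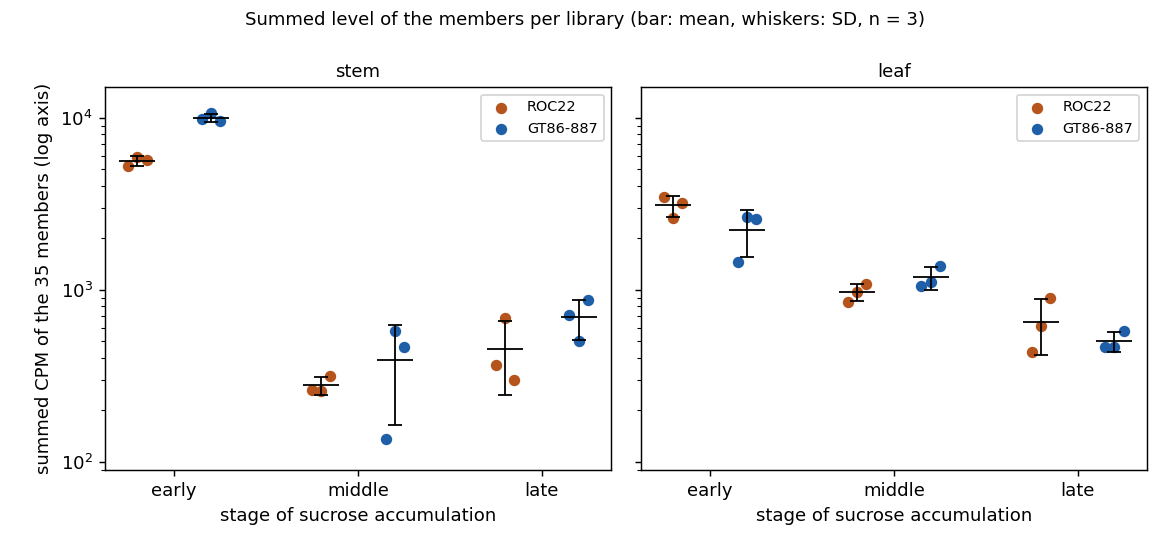
Summed CPM of the 35 members (log axis) per library by stage in stem and leaf, with points for libraries and the mean and SD of 3. Early stem lies at 5215 to 5928 CPM in ROC22 and 9579 to 10575 CPM in GT86_887, and the lowest value of all, 135 CPM, is the stem library labelled GT86_887 middle 1.

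The early stem libraries also chose the members, so their genotype difference is given as a description and nothing is read from its calls. The rule treats the genotypes alike and sets no sign of that difference. In early stem 7 of 35 members were lower in ROC22 and 0 were higher in the edgeR fit of 18 stem libraries. Over the 36199 unigenes tested, 19.1% were lower and 18.3% higher in ROC22. The early stem mean was higher in GT86_887 for 27 members, and the median log2 difference was -0.68 over the members and -0.01 over all unigenes. The count was 11 without the library labelled GT86_887 middle 1, with 10 lower and 1 higher. It was 3 or 4 when any 1 of the 6 early stem libraries was left out, namely 3, 4 and 3 without ROC22 early 1, 2 and 3 and 4, 4 and 3 without GT86_887 early 1, 2 and 3.

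The members named for this contrast were c110820.graph_c1 and c102756.graph_c0. In early stem c110820.graph_c1 held 277, 329 and 336 CPM in ROC22 and 763, 997 and 815 CPM in GT86_887, a log2 difference of -1.34 ± 0.45 (SE). The groups did not overlap, but the call was lost without any 1 of 5 early stem libraries. In early stem c102756.graph_c0 held 29.5, 24.5 and 28.4 CPM in ROC22 and 63.0, 77.3 and 73.6 CPM in GT86_887, a log2 difference of -1.27 ± 0.35 (SE). It is among the 7 members under 1 CPM in every leaf group. For the most abundant member, c127155.graph_c0, the early stem difference was -0.93 ± 0.58 on the log2 scale (SE).

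Whether the stem fall differed in depth between the genotypes is not reported as a test, because the rule asks for a deep fall in both and so bounds that difference.

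In early leaf the difference of ROC22 minus GT86_887 was positive for 23 of the 31 members tested. As a description, 18 of the 31 were negative in early stem and positive in early leaf. Calls both as lower in early stem and as higher in early leaf were made for 2 members. The share of all unigenes with both calls was not counted, so nothing is read from this count. Of the 31 members tested, 11 passed as higher and 1 as lower in ROC22, against 16.8% and 17.0% of all unigenes. Their median log2 difference in early leaf was 0.76 over the 31. Named for this contrast, c113884.graph_c0 was higher in ROC22 by 2.41 ± 0.31 (SE, edgeR adjusted p = 4.23e-05) and c120244.graph_c1 by 1.17 ± 0.29 (adjusted p = 0.00494). Their early leaf values, given above, did not overlap between the genotypes. The 1 lower member was c134671.graph_c1, with 13.6, 12.6 and 16.7 CPM in ROC22 and 31.4, 31.3 and 28.8 CPM in GT86_887, a log2 difference of -0.98 ± 0.25 (adjusted p = 0.00759).

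The genotype difference was set against itself in the other tissue in 1 edgeR fit of all 36 libraries, added after the values of both tissues were seen. Its stem side comes from libraries that chose the members, so its counts are a description. The early difference of ROC22 minus GT86_887 was higher in leaf than in stem for 10 of 35 members and lower for 0. Over the 42119 unigenes tested, 4.35% were higher and 5.65% lower. The median was 1.17 on the log2 scale over the members and -0.05 over all unigenes. Of the 10 members, 8 also passed as higher in ROC22 in early leaf and 4 as lower in early stem. The count was 6 without the third ROC22 early stem library, 12 without the stem library labelled GT86_887 middle 1 and 10 without its leaf counterpart.

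The 2 largest of the 10, singled out after their values were seen, were c123196.graph_c0 and c123209.graph_c0. In early stem c123196.graph_c0 held 14.6, 21.5 and 10.4 CPM in ROC22 and 34.7, 65.1 and 37.6 CPM in GT86_887. In early leaf it held 36.9, 15.1 and 40.8 CPM in ROC22 and 6.12, 10.9 and 7.15 CPM in GT86_887. The genotypes did not overlap in either tissue and their order was opposite, with a log2 difference of -1.47 ± 0.34 in stem and 2.06 ± 0.46 in leaf (SE). The leaf-minus-stem difference was 3.46 ± 0.60 (SE).

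For c123209.graph_c0 early stem held 12.2, 9.11 and 10.1 CPM in ROC22 and 61.3, 52.3 and 60.6 CPM in GT86_887. Early leaf held 11.8, 3.90 and 8.32 CPM in ROC22 and 1.73, 7.44 and 5.71 CPM in GT86_887, where the genotypes overlapped. The log2 difference was -2.37 ± 0.64 in stem and 0.80 ± 0.48 in leaf, which did not pass there, and the leaf-minus-stem difference was 3.11 ± 0.84 (SE).

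**Figure D5:**
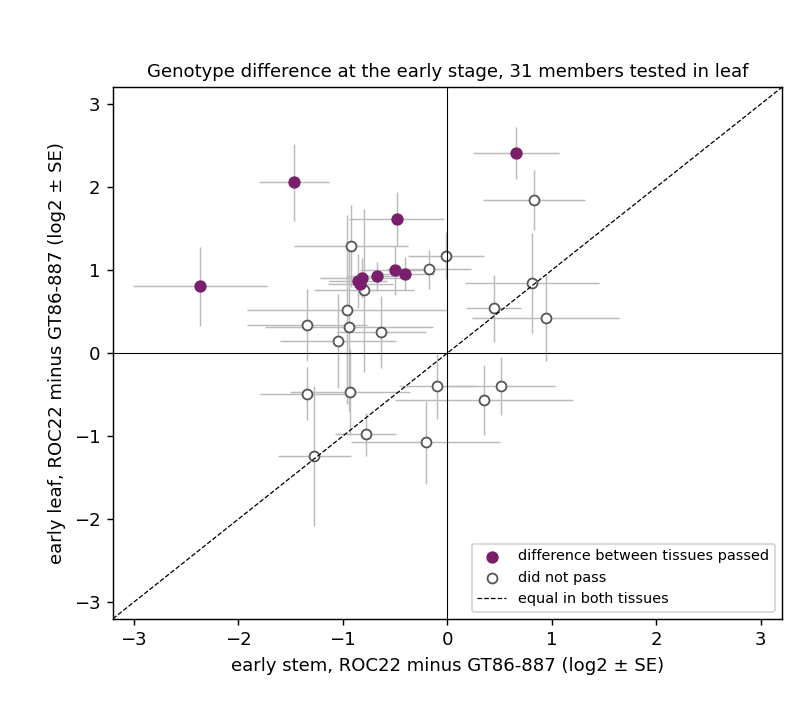
log2 difference of ROC22 minus GT86_887 at the early stage in stem (x axis) and leaf (y axis) with SE for the 31 members tested in leaf, filled where the difference between the tissues passed. Of these members 18 lie to the left of 0 in stem and above 0 in leaf, and all filled points lie above the dashed line of equal differences. The stem side comes from libraries that chose the members, so the filling is a description.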

How the data were processed

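For each of 100182 unigenes in 36 mRNA libraries the authors deposited whole-read counts and FPKM values, named as such per the file headers. The degradome target table was read only for the names of target unigenes. The aligner, the assembler and the counting program are named in none of the sources used here. CPM was computed as the count over the library sum. Tests on the counts used edgeR 4.0.16 under R 4.3.3 (filterByExpr, TMM scaling, 1 coefficient per group, quasi-likelihood test, Benjamini-Hochberg adjustment over all unigenes tested). Stem and leaf were fitted apart, except for the leaf-minus-stem difference, which came from 1 fit of all 36 libraries. The authors' FPKM values served for levels per length and as an alternative in the membership rule, and were not tested. DESeq2 1.42.0 and other scalings, filters and left-out libraries were tried as alternatives. The scripts were tested on simulated data. An SE is the log2 change over the square root of the quasi-likelihood F.

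The members and lists were chosen with earlier results of these data known. Named are the 2 members highest in early stem, the 2 steepest, the nearest to the threshold on either side and, per contrast, up to 2 in each direction with the largest change that passed, a level above the median of the members tested and no overlap between groups. Unigenes singled out otherwise are said to be. Counting floors cover counting error only.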

Additional observations from a re-analysis of the deposited data

Results flagged for a closer look

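In an edgeR test, the early difference of ROC22 minus GT86_887 was higher in leaf than in stem for 10 of 35 members and lower for 0. Over the 42119 unigenes tested, 4.35% were higher and 5.65% lower. The test was added after the data were seen and its stem side uses the libraries that chose the members, so the count is a description and not independent evidence. The largest differences among those that passed were 3.46 on the log2 scale for c123196.graph_c0, whose genotypes lay in opposite order in the tissues in 3 of 3 libraries each, and 3.11 for c123209.graph_c0, whose early leaf libraries overlapped. Early leaf of GT86_887 held 1 library with a lower sum over the members, 1455 CPM against 2660 and 2588 CPM, and without this library 7 members passed, all higher in leaf.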

How the results depend on the processing

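The number of members was 39 with TMM-scaled CPM and 36 with group medians, 76 at a fold of 4 and 7 at a fold of 16, 27 with a floor of 10 CPM, 35 with FPKM (31 of them shared) and 29 to 37 with 1 stem library left out. At a fold of 4, 4 members met the rule in leaf. Without a low-count filter 16 members passed in middle minus early leaf of GT86_887, all lower, where 3951 of 87659 unigenes were lower and 4341 higher. In the leaf-minus-stem difference of the early genotype contrast 20 then passed (18 higher, 2 lower), where 2313 of 100179 unigenes were higher and 2298 lower. The smallest adjusted p of a member in that unfiltered leaf contrast was 1.06e-87 (edgeR). The calibration of the unfiltered fits is therefore doubtful, and nothing is read from their counts. With 1 library left out, the members called ran from 3 to 11 in early stem, 15 to 24 in late minus early leaf of GT86_887 and 6 to 12 in leaf minus stem. The other alternatives run kept each count within 1.5 times. Of the named members only c110820.graph_c1 in early stem lost its call, in 5 of 22 alternatives, and none changed sign. The replicate block gave 8 members in early stem (1 higher, 7 lower), 20 and 25 for middle and late minus early leaf of ROC22, 10 and 23 for those of GT86_887, 12 in early leaf and 10 in leaf minus stem. Within a tissue, deviations from the group mean were correlated between libraries of different groups. In stem the correlations were -0.265 to 0.138 for the same number (median -0.0190) and -0.216 to 0.225 for different numbers (median 0.0152). In leaf they were -0.0907 to 0.212 (median 0.0336) and -0.209 to 0.116 (median -0.0108). All were weak, but in leaf those of the same number ran somewhat higher. Such correlations cannot decide whether the numbers pair samples across the groups of 1 tissue, and the main fits treat them as unpaired. Whether leaf and stem libraries of the same group and number share a plant was not tested, and the fit of all 36 libraries treats them as unpaired. A planned test of microRNAs was not run, since no member is a degradome target. Depth limits the members under 1 CPM in leaf.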
